A study of Mus musculus with 5 samples.

Results

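Sinusoidal endothelial cells that carried at least 3 molecules of Esm1 and Angpt2 together were examined in 5 single-cell libraries of mouse liver. They numbered 1626 of 8953 cells in a sinusoidal gate and of 19815 cells in all. All libraries were made from male wild-type mice, aged 9 weeks at surgery and killed 2 weeks after it. Sham surgery gave the libraries sham 1 and sham 2, and partial ligation of the inferior vena cava (pIVCL), a model of liver congestion in which the vein is narrowed above the liver, gave pIVCL 1, pIVCL 2 and pIVCL 3. All livers were perfused with pronase and collagenase and depleted of hepatocytes, dead cells and erythrocytes before capture. Both sham libraries and pIVCL 1 are labelled batch 2021.3, and pIVCL 2 and pIVCL 3 batch 2021.7, so batch and surgery overlap in part.

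Cells were first kept if they held at least 500 molecules, at least 200 genes and at most 25% mitochondrial molecules. The gate then asked for a sum of at least 10 molecules of Stab2, Clec4g, Kdr and Dnase1l3, at least 6 of Stab2 and Clec4g, and fewer than 10 of the Kupffer cell genes Clec4f, Cd5l and Vsig4. Gated cells with 3 or more molecules of Esm1 plus Angpt2 are called positive cells here, and those with 0 to 2 are called low cells. The positive cells numbered 79 in sham 1, 101 in sham 2, 496 in pIVCL 1, 661 in pIVCL 2 and 289 in pIVCL 3. The cells were thus chosen by measured molecules of these 9 genes, whose levels are given as a description and enter no count of changed genes. Positive and low cells of a library were alike in depth, with medians of 4356 and 4240 molecules a cell in pIVCL 1, 4427 and 4293 in pIVCL 2, 4742 and 4598 in pIVCL 3, 5246 and 5247 in sham 1, and 4917 and 5027 in sham 2. Between 7 and 20 cell indexes recurred in each pair of libraries, and 1 such index fell on positive cells of both libraries of a pair.

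Liver sinusoids are lined by a fenestrated, scavenging endothelium whose genes change between the portal and the central end of the lobule. When vessels sprout, leading tip cells secrete Esm1 (endocan) and release Angpt2, a ligand of the receptor Tek that can antagonise Angpt1 and loosen vessel walls, and they commonly express Apln, Dll4, Pdgfb and proteases of the plasminogen system. Depp1 is a target of FOXO transcription factors, and Ccn2 is a matrix protein commonly used as a readout of YAP and TEAD activity.

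The positive cells kept the profile of sinusoidal endothelium. Genes of a sinusoidal list (24, none of them used by the gate) contributed 2.90, 2.79 and 2.79% of their molecules in pIVCL 1, 2 and 3, against 2.70, 2.53 and 2.50% in low cells, and a list of 15 pan-endothelial genes made up 1.36, 1.30 and 1.36% against 1.39, 1.30 and 1.42%. All 15 pan-endothelial genes were detected in the positive cells of every library. So were all 25 hepatocyte markers in those of sham 1, pIVCL 1 and pIVCL 2, so detection in such sums cannot tell cell types apart. Hepatocyte markers made up 0.117, 0.180 and 0.119% in positive and 0.114, 0.181 and 0.136% in low cells of pIVCL, and none of the 25 passed the test between them. As for the label angiogenic, 8 of 20 tip cell and sprouting genes were higher in positive than in low cells of pIVCL. By the same test, given later, Mcam was lower and 4.09% of all genes tested were higher. Igfbp3 and Lamb1 of the 8 kept their calls in 8 of 17 and 6 of 14 alternative fits. Flt4 and Plaur lost theirs once cells with any molecule of Wnt2, Wnt9b, Rspo3, Thbd, Cdh13, Kit, Vwf or Gja4 were left out. Molecules of these genes are called pericentral or large-vessel molecules here. The set kept 50.8, 44.6 and 43.6% of positive and 32.4, 30.8 and 30.5% of low cells in pIVCL 1, 2 and 3. What part the smaller number of cells had in lost calls was not tested. The tip cell list made up 0.570, 0.634 and 0.713% of molecules in positive cells of pIVCL 1, 2 and 3. In low cells it made up 0.514, 0.591 and 0.665%. Apln and 13 of 16 cell cycle genes did not pass.

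Positive cells were a small share of sham sinusoidal cells and a large share of pIVCL sinusoidal cells. They made up 2.90% of gated cells in sham 1 (exact 95% binomial interval 2.31 to 3.61) and 4.30% in sham 2 (3.52 to 5.20). The share was 34.8% in pIVCL 1 (32.3 to 37.3), 36.8% in pIVCL 2 (34.6 to 39.1) and 43.4% in pIVCL 3 (39.6 to 47.3). The means were 3.60% ± 0.989 (SD, n = 2) and 38.3% ± 4.49 (SD, n = 3), a ratio of 10.6, and the groups did not overlap. No test is given, since the 2 genes were chosen for this difference. Intervals cover counting error only. With every gated cell thinned to 2000 molecules, which left out 0, 0, 21, 40 and 21 shallower cells of sham 1, sham 2, pIVCL 1, pIVCL 2 and pIVCL 3, the share with 3 or more molecules was 1.03 and 1.58% in sham and 20.2, 20.3 and 22.9% in pIVCL.

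Transcripts free in the suspension can give a molecule to a cell that does not express the gene. Kupffer cells were taken here as cells with at least 10 molecules of Clec4f, Cd5l and Vsig4. They also had to hold fewer than 3 of Stab2, Clec4g, Kdr and Dnase1l3, which left 314, 236, 130, 210 and 286 cells. This limit removes Kupffer cells that took up more endothelial transcripts, so the shares below may understate the background. In Kupffer cells, which should lack both genes, 0, 2.54, 3.08, 2.86 and 2.80% of cells in sham 1, sham 2, pIVCL 1, pIVCL 2 and pIVCL 3 held 1 or more molecules, at median depths of 7699, 6547, 4972.5, 5974.5 and 4126 molecules. None held 3 or more, which allows a share of up to 1.17 to 2.80% by the exact interval of each library. In gated cells the share with 1 or more molecules was 13.8 and 16.2% in sham and 59.6, 64.1 and 66.1% in pIVCL.

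**Figure D1:**
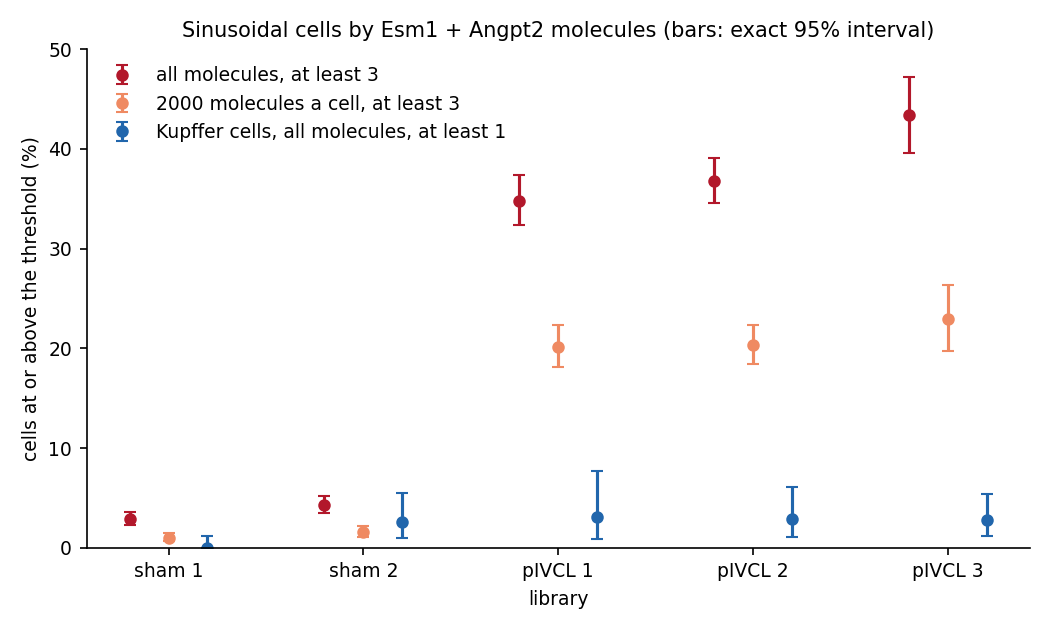
Share of cells (percent, vertical axis) in each library with 3 or more molecules of Esm1 plus Angpt2 among gated sinusoidal cells, before and after thinning each cell to 2000 molecules, and share with 1 or more among Kupffer cells. Bars are exact 95% binomial intervals, and the 3 pIVCL libraries at 34.8 to 43.4% lie above the sham libraries at 2.90 and 4.30%.

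The 2 genes occurred together in most positive cells of pIVCL and in fewer of sham. Cells with both genes were 66.5, 66.3 and 72.3% of the positive cells of pIVCL 1, 2 and 3, and 31.6 and 43.6% of those of sham 1 and 2. Cells with Esm1 alone were 25, 27.1 and 19.7% in pIVCL and 58.2 and 50.5% in sham, and cells with Angpt2 alone 8.47, 6.66 and 7.96% in pIVCL and 10.1 and 5.94% in sham. The positive cells of pIVCL held 2.78, 2.96 and 2.54 molecules of Esm1 for each of Angpt2, and those of sham 5.64 and 5.57. The median sum of both genes was 6, 6 and 7 molecules in pIVCL and 4 in both sham libraries, with highest cells of 48, 34 and 58 in pIVCL and 26 and 18 in sham. Sham positive cells therefore sat closer to the threshold and held more Esm1 for each Angpt2 molecule. A cell with a smaller sum has less room to hold both genes, so the share with both cannot be told apart from the sum. Both genes also chose the cells.

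Positive cells with Angpt2 alone differed in level from those with Esm1 alone, as a description with no test over 42, 44 and 23 Angpt2-only and 124, 179 and 57 Esm1-only cells of pIVCL 1, 2 and 3. The genes of this comparison were chosen after their values were seen. Levels are given in CPM, counts per 1000000 molecules of the cells summed. Fbln2, an extracellular matrix protein of vessel walls, was at 114, 75.1 and 208 CPM in Angpt2-only cells and at 0, 7.79 and 39.9 CPM in Esm1-only cells. Plau, the urokinase plasminogen activator, was at 497, 375 and 602 CPM against 179, 280 and 301. Cxcl9, a chemokine induced by interferon gamma that attracts T cells, went the other way, at 539, 724 and 810 CPM against 1089, 1342 and 953. In each of the 3 libraries Fbln2, Plau, Pdgfb and Cdh13 were higher and Cxcl9, Kcne3 and Kcnj2 lower in Angpt2-only cells. Lyve1, Rspo3 and Wnt2 were among other genes higher in each, and Dll4 was lower, at 324, 409 and 370 CPM against 635, 659 and 616. Angpt2-only cells were also deeper, with medians of 5203, 4839 and 5459 molecules against 3943, 4126 and 4282. How often other genes kept 1 direction in all 3 libraries was not counted.

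Within pIVCL libraries, positive cells held more of Kcne3, Kcnj2, Kcnj8, Abcc9, Cxcl9 and Ccn2 than low cells and less of Slco2a1, Gja4, Cdh13 and Wnt2. Molecules were summed per library over positive and over low cells and compared within library (edgeR quasi-likelihood test, library as a block, 3 pairs). Of 10450 genes tested 798 passed at an adjusted p of 0.05 (7.64%), 427 higher (4.09%) and 371 lower (3.55%) in positive cells. The p-values measure how the difference between positive and low cells varied over these 3 libraries, each labelled as from a mouse. The spread of a gene was moderated by that of all genes tested, so very small p-values do not rest on the 3 pairs alone. On the same sums DESeq2's Wald test called 235 genes. The test relies on the pairing of sums within a library: with no library block 3 genes passed.

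Kcnj2, Kcnj8, Abcc9 and Kcne3, genes of potassium channels, rose together in positive cells. Kcnj2, the inward rectifier Kir2.1 that senses flow in endothelium, was at 100, 62.6 and 199 CPM in positive cells of pIVCL 1, 2 and 3 and at 27.8, 15.9 and 46.2 CPM in low cells. The fitted difference was 3.94-fold (log2 1.98 ± 0.11 SE, adjusted p = 2.01e-27), and the ranges of positive and low cells did not overlap. In sham, positive cells held 85.4 and 94.4 CPM of Kcnj2 and low cells 11.4 and 12.0, so sham positive cells lay within the pIVCL positive range. Kcnj8 and Abcc9 encode the pore Kir6.1 and the sulfonylurea receptor SUR2 of 1 ATP-sensitive channel and are neighbours in the genome. Kcnj8 was at 118, 166 and 189 CPM against 37.0, 50.0 and 104 CPM in low cells of the same libraries (log2 1.45 ± 0.16 SE, adjusted p = 7.73e-04). Its difference was smallest in pIVCL 3 (log2 0.87) and it did not pass among cells with at least 1000 molecules and at most 10% mitochondrial molecules. Abcc9 was at 327, 502 and 790 CPM against 150, 278 and 351 CPM (log2 1.03 ± 0.06 SE, adjusted p = 1.71e-22). Kcne3, an accessory subunit of voltage-gated channels that is also used as a tip cell marker, had the largest rise by the naming rule: 40.9, 89.1 and 99.3 CPM against 8.44, 18.6 and 22.3 CPM (log2 2.23 ± 0.14 SE, adjusted p = 5.25e-25). Each of these genes was higher in positive cells of all 5 libraries.

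The promoter windows of Kcnj8, Abcc9 and Kcnj2 are shown, since these encode channel pores and the receptor of 1 channel. The table holds a pair of windows for Kcne3, an accessory subunit, which are not printed: 1 of them held 1 match to the ACGTG motif given next and the other held none of the motifs. Each runs from 250 bases before to 50 bases after a gene start and was taken from RefSeq on GRCm38.p6, an earlier build than that of the deposited counts. Windows were found for 11 of 13 genes looked up. They lie at chr6:142571565-142571864 on the minus strand (Kcnj8), chr6:142702225-142702524 on the minus strand (Abcc9) and chr11:111065914-111066213 on the plus strand (Kcnj2), and are written 5′ to 3′ on the strand of the gene. Capitals mark matches, on either strand, to GGAATG (bound by TEAD factors), GTAAACA (FOXO factors) or ACGTG (hypoxia-inducible factors).
Kcnj8: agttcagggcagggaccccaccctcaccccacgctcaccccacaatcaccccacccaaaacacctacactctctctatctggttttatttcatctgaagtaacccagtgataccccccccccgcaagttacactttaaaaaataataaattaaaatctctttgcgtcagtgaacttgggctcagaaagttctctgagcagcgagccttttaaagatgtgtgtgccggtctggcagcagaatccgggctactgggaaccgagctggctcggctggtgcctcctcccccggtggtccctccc
Abcc9: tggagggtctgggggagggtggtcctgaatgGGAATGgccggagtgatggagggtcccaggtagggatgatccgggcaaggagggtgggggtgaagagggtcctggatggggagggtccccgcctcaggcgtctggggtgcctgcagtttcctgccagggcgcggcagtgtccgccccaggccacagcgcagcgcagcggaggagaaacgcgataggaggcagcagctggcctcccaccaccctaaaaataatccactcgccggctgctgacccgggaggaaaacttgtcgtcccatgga
Kcnj2: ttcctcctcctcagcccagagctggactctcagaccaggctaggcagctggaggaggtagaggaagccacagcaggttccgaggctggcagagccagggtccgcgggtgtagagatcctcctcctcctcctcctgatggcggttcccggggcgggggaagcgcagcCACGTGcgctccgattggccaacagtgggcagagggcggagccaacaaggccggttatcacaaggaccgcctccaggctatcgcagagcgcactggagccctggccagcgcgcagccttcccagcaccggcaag
The Abcc9 window held 1 match to GGAATG, a motif found in 14.7% of the 32851 windows of the table. In Kcnj2 the pair of ACGTG matches overlap, 1 on each strand, and ACGTG occurred in 19.6% of windows. GTAAACA, found in 3.65% of windows, was in none of the 3, and the Kcnj8 window held no match. A match describes letters in the window and shows no binding.

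Cxcl9, Lcp2, Efcc1, Gpx8 and Ppp1r9a were among the 10 largest rises as well. Cxcl9 was at 1034, 1423 and 1301 CPM in positive and 366, 612 and 457 CPM in low cells of pIVCL 1, 2 and 3 (log2 1.40 ± 0.05 SE, adjusted p = 3.78e-22). Sham positive cells, at 755 and 1020 CPM against 203 and 314 CPM in low cells, showed the same order in both libraries. Lcp2, the adaptor SLP-76 of immune receptor and platelet signalling, was at 103, 87.6 and 111 CPM against 44.5, 38.3 and 52.3 CPM (log2 1.18 ± 0.10 SE, adjusted p = 1.04e-16). Efcc1, Gpx8 and Ppp1r9a rose by smaller amounts, between log2 0.89 and 0.92. Gpx8, a peroxidase of the endoplasmic reticulum, did not pass once cells with pericentral or large-vessel molecules were left out.

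Of the interferon list 4 of 22 genes tested rose, among them Cxcl9, Cxcl10 and Ifi44, and 1 fell (Gbp4). Over all genes tested in pIVCL 4.09% rose and 3.55% fell. The median log2 difference was 0.09 over the list against -0.00029 over all genes tested. Cxcl10, another chemokine of the same receptor, was at 609, 364 and 246 CPM against 457, 290 and 148 CPM (log2 0.45 ± 0.06 SE, adjusted p = 7.38e-09). The larger difference thus belonged to Cxcl9 within a list of which most genes did not pass. Ifi44 did not pass after leaving out cells with pericentral or large-vessel molecules, or those with molecules of other cell types.

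Ccn2 and Depp1, the markers that did not choose the cells, both rose. They were named as markers with earlier results of these data known, so their rise is no independent support. Ccn2 was at 2810, 1191 and 2280 CPM in positive and 1270, 479 and 1059 CPM in low cells of pIVCL 1, 2 and 3 (log2 1.19 ± 0.04 SE, adjusted p = 3.23e-43). The level of pIVCL 2 positive cells lay below that of pIVCL 1 low cells, so the libraries differed by as much as the cell states. Depp1 was at 264, 445 and 594 CPM against 132, 274 and 339 CPM (log2 0.82 ± 0.06 SE, adjusted p = 1.18e-21), with pIVCL 1 lowest in both states. The YAP and TEAD target list had 5 of 18 genes higher (Ccn1, Ccn2, Crim1, Gadd45a and Igfbp3) and 2 lower (Axl and Rbms3), with a median of 0.13. Among all genes tested 4.09% were higher and 3.55% lower. Igfbp3, which binds insulin-like growth factors, was at 74.4, 248 and 210 CPM against 57.3, 171 and 190 CPM (log2 0.38 ± 0.08 SE, adjusted p = 1.03e-04); it kept its call in 8 of 17 alternatives, and without cells holding molecules of other cell types its difference turned to -0.57. Of the FOXO target list 4 of 13 rose (Cdkn1b, Depp1, Klf6 and Pdk4) and Ddit4, an inhibitor of mTOR signalling, fell (log2 -1.09 ± 0.09 SE, adjusted p = 1.21e-17).

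**Figure D2:**
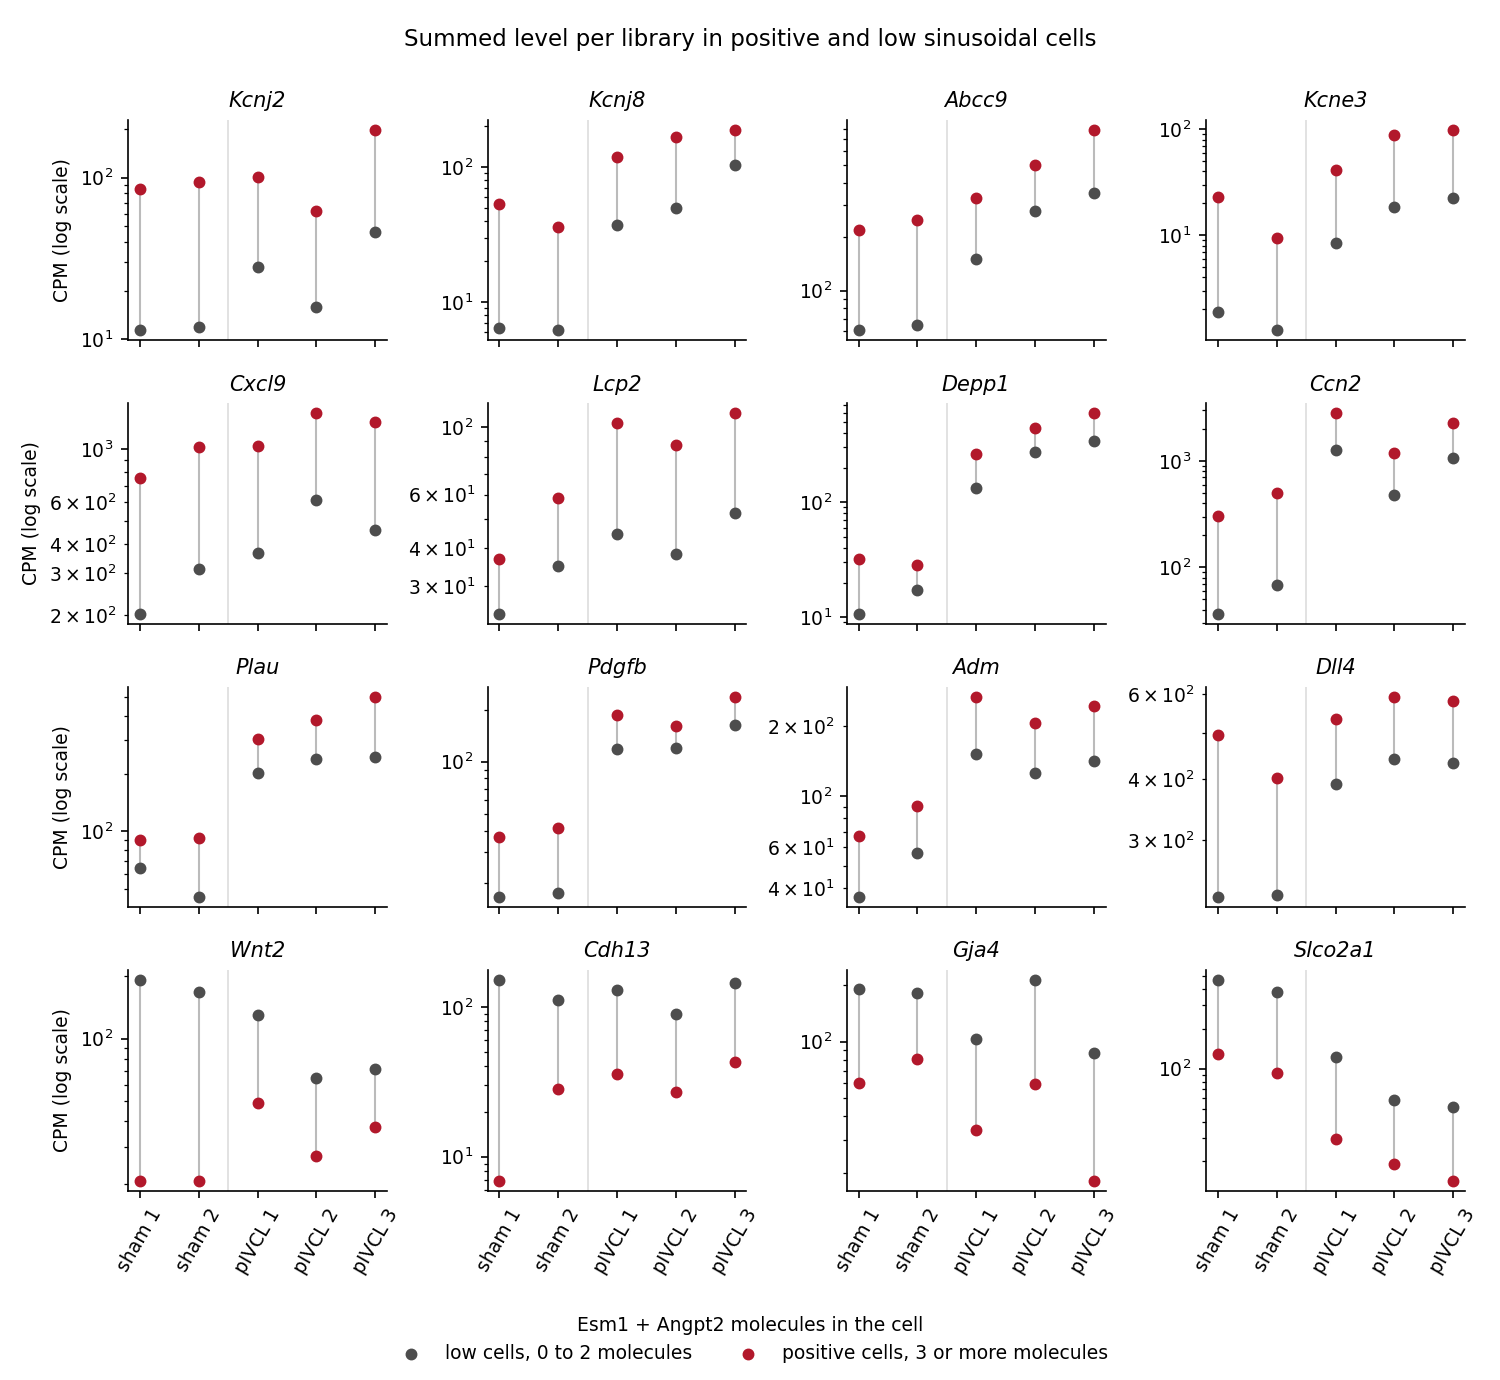
Level (CPM, log scale, vertical axis) of 16 genes in each library, summed over positive cells (red) and low cells (grey) and joined by a line. Genes such as Kcnj2 reach similar levels in positive cells of sham and pIVCL, while Depp1 and Plau are higher in both states of every pIVCL library than in any sham sum.

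The tip cell and sprouting list had 8 of 20 genes higher in positive cells and 1 lower (Mcam), with a median log2 difference of 0.16. Of all genes tested 4.09% were higher and 3.55% lower. Adm, the vasodilator peptide adrenomedullin, was at 268, 205 and 246 CPM in positive and 151, 125 and 142 CPM in low cells of pIVCL 1, 2 and 3 (log2 0.78 ± 0.07 SE, adjusted p = 7.38e-17). Pdgfb, the ligand that recruits pericytes, was at 185, 162 and 238 CPM against 119, 120 and 163 CPM (log2 0.54 ± 0.07 SE, adjusted p = 4.20e-09). Dll4, the Notch ligand of tip and arterial cells, was at 533, 594 and 582 CPM against 390, 441 and 432 CPM (log2 0.44 ± 0.05 SE, adjusted p = 1.53e-12). Adm, Pdgfb and Dll4 were higher in positive cells of all 5 libraries, though low cells of pIVCL 3 reached the Pdgfb level of pIVCL 2 positive cells. Apln, the peptide most often used to mark tip cells, did not pass: it was at 20.3, 39 and 150 CPM against 14.2, 38.7 and 49.3 CPM (log2 0.73 ± 0.47 SE, adjusted p = 0.641), with pIVCL 3 apart from the other two. Cd34 also did not pass (log2 0.19, adjusted p = 0.647). Lamb1, a laminin chain of the same list, kept its call in 6 of 14 alternatives.

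Matrix proteolysis genes moved in both directions. Plau was at 303, 379 and 504 CPM in positive cells and 202, 239 and 243 CPM in low cells (log2 0.75 ± 0.07 SE, adjusted p = 1.43e-09). Its receptor Plaur was at 40.9, 34.3 and 43.1 CPM against 18.9, 23.7 and 17.3 CPM (log2 0.91 ± 0.16 SE, adjusted p = 6.25e-06). Plaur passed except with no library block and among cells without pericentral or large-vessel molecules. Timp3, a tissue inhibitor of metalloproteinases, fell (log2 -0.39 ± 0.04 SE, adjusted p = 3.46e-11). Over the list 4 of 13 genes rose and 2 fell, beside 4.09 and 3.55% of all genes tested, with a median of -0.07.

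Receptors of growth factors shifted by small amounts. Tek, the receptor of Angpt2, was lower in positive cells at 215, 138 and 164 CPM against 288, 187 and 219 CPM (log2 -0.42 ± 0.06 SE, adjusted p = 3.53e-07). Tie1, its partner receptor, did not pass (log2 -0.12, adjusted p = 0.0637). Flt1, which traps VEGF-A, fell (log2 -0.35 ± 0.04 SE, adjusted p = 1.49e-10), while Flt4, the receptor of VEGF-C, rose (log2 0.23 ± 0.04 SE, adjusted p = 1.18e-05) and Vegfc rose (log2 0.69 ± 0.13 SE, adjusted p = 3.42e-05). Flt4, Nrp2 and Vegfc did not pass once cells with pericentral or large-vessel molecules were left out. The Notch list was split, with Dll4, Mfng and Notch4 higher and Dll1, Jag1 and Lfng lower among 12 genes tested. Jag1 and Lfng did not pass among cells without pericentral or large-vessel molecules, where Lfng was at -0.0042. Dll1 did not pass without cells holding molecules of other cell types. In the list of BMP and TGF-beta targets 4 of 11 genes fell and none rose: Id1, Id2, Id3 and Bambi, by 0.25 to 0.79 on the log2 scale. Bambi did not pass in either of these cell sets or without pIVCL 1. Of the hypoxia and glycolysis list 2 of 21 rose, Adm and Ndrg1, and the median was -0.02. For all genes tested the shares were 4.09% higher and 3.55% lower.

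Among genes with a mean log2 CPM of 5 or more, the 10 largest falls in positive cells were those of Slco2a1, Gja4, Cdh13, Fbln2, Jam2, Cd9, Hpgd, Wnt2, Ly6a and Thbd. Wnt2, Thbd and Cdh13 are on the pericentral list, and Thbd, Gja4, Slco2a1 and Hpgd on the flow-responsive list. Gja4, the connexin of arterial and larger vessels, was at 33.9, 59.3 and 18.1 CPM in positive and 104, 213 and 87.4 CPM in low cells of pIVCL 1, 2 and 3 (log2 -1.84 ± 0.10 SE, adjusted p = 1.13e-27). Slco2a1, the prostaglandin transporter, was at 29.8, 19.1 and 14.4 CPM against 123, 58.0 and 51.8 CPM (log2 -1.84 ± 0.13 SE, adjusted p = 2.53e-21), and Hpgd, which degrades prostaglandins, was lower as well (log2 -1.27 ± 0.11 SE, adjusted p = 2.28e-17). Cdh13, a cadherin of pericentral sinusoids, was at 35.6, 27.1 and 43.1 CPM against 130, 90.1 and 145 CPM (log2 -1.78 ± 0.11 SE, adjusted p = 6.66e-26). These 4 genes were lower in positive cells of all 5 libraries, as the plot of differences shows. Wnt2, a Wnt ligand that pericentral endothelium supplies to hepatocytes, was at 49.2, 27.1 and 37.5 CPM against 130, 64.8 and 71.1 CPM (log2 -1.24 ± 0.11 SE, adjusted p = 1.02e-15). Thbd, the anticoagulant receptor thrombomodulin, was at 31.0, 25.6 and 17.5 CPM against 60.5, 61.1 and 49.8 CPM (log2 -1.19 ± 0.13 SE, adjusted p = 1.30e-11).

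Of the others, Ly6a and Cd9 are on the capillarization list, Fbln2 is on the basement membrane list and Jam2 on none. Ly6a, the surface protein Sca-1, was at 200, 168 and 149 CPM against 435, 356 and 423 CPM (log2 -1.20 ± 0.06 SE, adjusted p = 1.98e-24). Fbln2 was at 26.9, 25.3 and 66.8 CPM against 100, 96.5 and 138 CPM, and did not pass after the same removals of cells, where its difference reached -0.53. Jam2, a junctional adhesion molecule, passed narrowly (log2 -1.58 ± 0.24 SE, adjusted p = 0.0346). Rspo3, a Wnt enhancer of central veins, was at 26.1, 42.3 and 35.6 CPM against 162, 82.9 and 167 CPM and did not pass (log2 -1.84 ± 0.45 SE, adjusted p = 0.257).

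**Figure D3:**
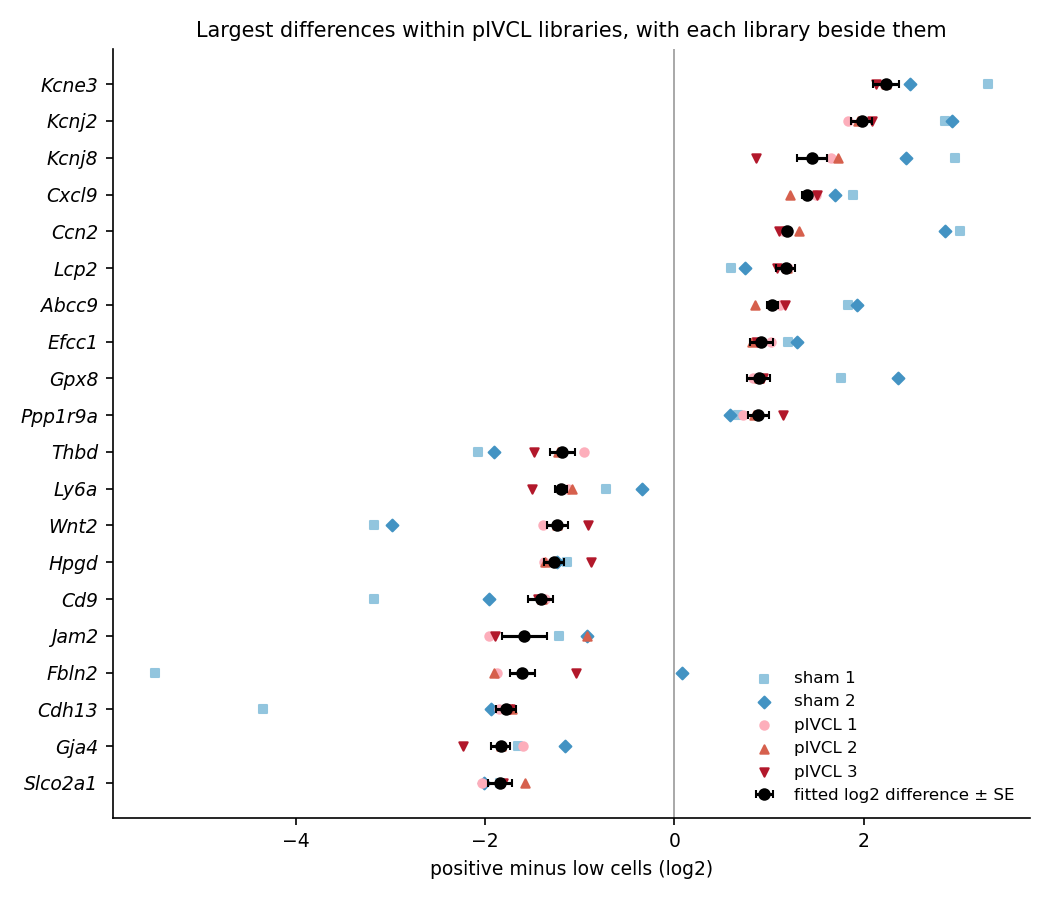
Log2 difference (horizontal axis) between positive and low cells for the 10 largest rises and 10 largest falls named by rule; black points and bars are the pIVCL fit ± SE and coloured points the ratio in each library. The sham points of Ccn2 and Wnt2 lie farther from 0 than the pIVCL points, and the Fbln2 point of sham 1 rests on 0 molecules in positive cells.

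By list, 7 of 12 pericentral genes fell (Cdh13, Fabp4, Gatm, Lhx6, Ptgs1, Thbd and Wnt2) and Pcdh17 rose, with a median of -0.54, while 7 of 12 periportal genes rose (Chst2, Dll4, Efna1, Efnb2, Galnt15, Ntn4 and Osmr) and Adgrg6 and Msr1 fell, with a median of 0.19. Galnt15, a glycosyltransferase of periportal sinusoids, was at 321, 291 and 289 CPM against 155, 170 and 168 CPM (log2 0.88 ± 0.06 SE, adjusted p = 7.40e-21). Of flow-responsive genes 8 of 15 fell, among them Nos3, the endothelial nitric oxide synthase, at 55.0, 50.7 and 46.2 CPM against 92.2, 92.7 and 83.8 CPM (log2 -0.82 ± 0.10 SE, adjusted p = 5.21e-10). Klf2, a transcription factor induced by laminar flow, did not pass (log2 -0.45 ± 0.14 SE, adjusted p = 0.345). The 4 genes of that list that rose were Abcc9, Kcnj2, Kcnj8 and Edn1. Of the capillarization list 7 of 12 fell (Aqp1, Cd9, Cldn5, Gja4, Ly6a, Selp and Vwf) and Edn1, the constrictor endothelin, rose (log2 0.28, adjusted p = 0.0468). Beside these list counts, 4.09% of all genes tested rose and 3.55% fell.

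Pericentral genes took a larger share of molecules in low than in positive cells. The list contributed 0.195, 0.201 and 0.228% in positive and 0.259, 0.235 and 0.289% in low cells of pIVCL 1, 2 and 3. The share of cells with no molecule of Wnt2, Wnt9b, Rspo3, Thbd, Cdh13, Kit, Vwf and Gja4 was 50.8, 44.6 and 43.6% in positive and 32.4, 30.8 and 30.5% in low cells. Among those cells alone, an alternative chosen after seeing the data, 204 genes passed, 187 of them among the 798. Kcne3, Kcnj2, Kcnj8, Cxcl9, Ccn2, Lcp2, Abcc9, Depp1, Adm, Plau and Pdgfb passed there in the same direction. Slco2a1, Hpgd, Ly6a, Cd9 and Nos3 also passed there, while the genes that chose these cells cannot be read in them.

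Among sinusoidal genes 9 of 24 rose and 4 fell, beside 4.09 and 3.55% of all genes tested, with a median of 0.14. Cd36, a scavenger receptor and fatty acid transporter, was at 1922, 1923 and 2101 CPM against 1490, 1560 and 1619 CPM (log2 0.35 ± 0.04 SE, adjusted p = 6.35e-13). Aass, an enzyme of lysine breakdown, showed the largest rise of this list (log2 0.71 ± 0.05 SE, adjusted p = 1.45e-15), and Tspan7 fell (log2 -0.37 ± 0.04 SE, adjusted p = 2.81e-12). The scavenger receptor Stab1 and the hyaluronan receptor Lyve1 did not pass (log2 0.11, adjusted p = 0.0888, and log2 0.37, adjusted p = 0.334). Plvap, the protein of fenestral diaphragms, did not pass either (log2 -0.09, adjusted p = 0.207). Bmp6, which sinusoidal cells release to control hepcidin, rose (log2 0.58 ± 0.06 SE, adjusted p = 4.09e-12).

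Cell cycle genes mostly did not pass: of 16 tested Hmgb2 rose and Mcm5 and Ube2c fell, with the call kept in 6 of 17, 11 of 16 and 10 of 15 alternatives. Mki67 was at 17.4, 7.15 and 41.9 CPM in positive and 21.9, 28.0 and 33.0 CPM in low cells of pIVCL 1, 2 and 3, with no common direction. Over all genes tested 4.09% rose and 3.55% fell. Of the immediate-early list 7 of 17 rose (Btg2, Egr1, Fos, Fosl2, Jun, Junb and Jund) and 1 fell (Ier5), with a median of 0.15. Fosl2, an AP-1 subunit, had the largest of these (log2 0.86 ± 0.08 SE, adjusted p = 6.95e-14). Such genes also respond to tissue dissociation, whose part was not tested.

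Of the Kupffer list 6 of 12 genes fell (C1qa, C1qb, C1qc, Cd68, Csf1r and Lyz2) and Slc40a1 rose; the list made up 0.0620, 0.0797 and 0.0730% of molecules in positive and 0.0639, 0.115 and 0.0923% in low cells. Of stellate and fibroblast markers 3 of 17 rose (Acta2, Col14a1 and Colec11), at list shares of 0.0819, 0.274 and 0.211% in positive and 0.0904, 0.201 and 0.196% in low cells. In these libraries only Dpt of pIVCL 3 positive cells was at 0 among the stellate markers, and no Kupffer marker was. With only cells that held no molecule of defining markers of Kupffer cells, stellate cells, fibroblasts, T cells and B cells, also chosen after seeing the data, 506 genes passed and 459 of them were among the 798. None of the 13 mitochondrial genes passed, and over all genes tested 4.09% rose and 3.55% fell.

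**Figure D4:**
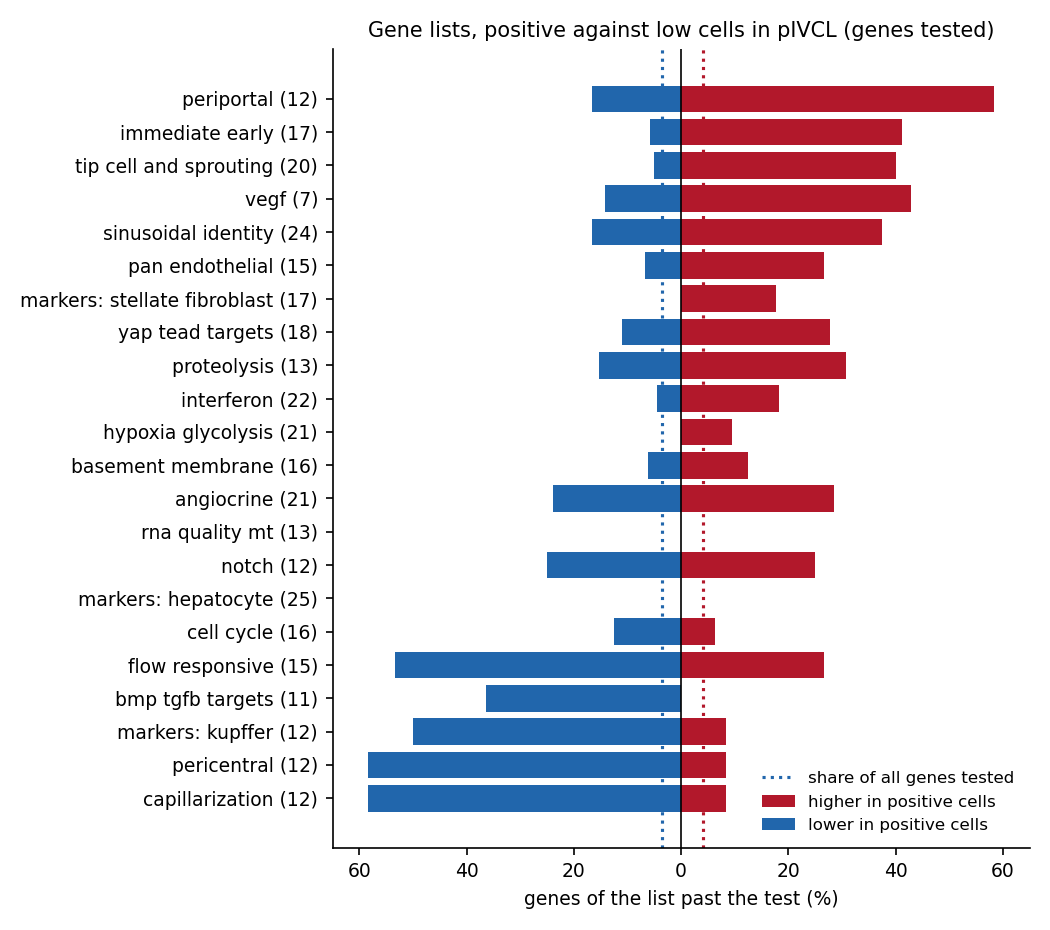
Percent of the tested genes of each list (number tested in brackets) that passed the test in pIVCL, higher in positive cells to the right and lower to the left; dotted lines give the 4.09 and 3.55% of all genes. The periportal list has 7 of 12 genes to the right, and the pericentral and capillarization lists 7 of 12 to the left.

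The levels of Cxcl9 and Wnt2 followed the number of Esm1 and Angpt2 molecules in each pIVCL library; these values are a description with no test. From cells with 0 through 1 to 2, 3 to 4 and 5 to 9 to those with 10 or more molecules, Cxcl9 was at 295, 476, 750, 1104 and 1181 CPM in pIVCL 1, at 511, 754, 976, 1365 and 1859 CPM in pIVCL 2 and at 390, 626, 871, 1173 and 2019 CPM in pIVCL 3. Wnt2 ran the other way, at 145, 108, 80.6, 42.4 and 23.6 CPM in pIVCL 1, at 79.2, 47.2, 36.0, 24.8 and 20.6 CPM in pIVCL 2 and at 86.1, 59.2, 55.9, 33.4 and 31.2 CPM in pIVCL 3. Other genes had no such order in some libraries: Lyve1 in pIVCL 3 was at 3936, 4251, 5044, 4578 and 4090 CPM, and Apln in pIVCL 2 at 33.2, 46.4, 9.0, 45.2 and 58.1 CPM. Just outside and just inside the threshold, cells with exactly 2 and exactly 3 molecules held 38.9 and 64.3 CPM of Kcnj2 in pIVCL 1, 15.0 and 18.6 in pIVCL 2 and 77.4 and 215 in pIVCL 3. For Cxcl9 the values were 538 and 654, 837 and 979, and 851 and 763 CPM. Kcnj2 was thus higher in the cells with exactly 3 molecules in every pIVCL library, though by little in pIVCL 2. Its values there are low and rest on 189 cells with exactly 2 and 127 with exactly 3 molecules. Cxcl9 was higher in the cells with exactly 3 molecules in pIVCL 1 and pIVCL 2 and lower in pIVCL 3.

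**Figure D5:**
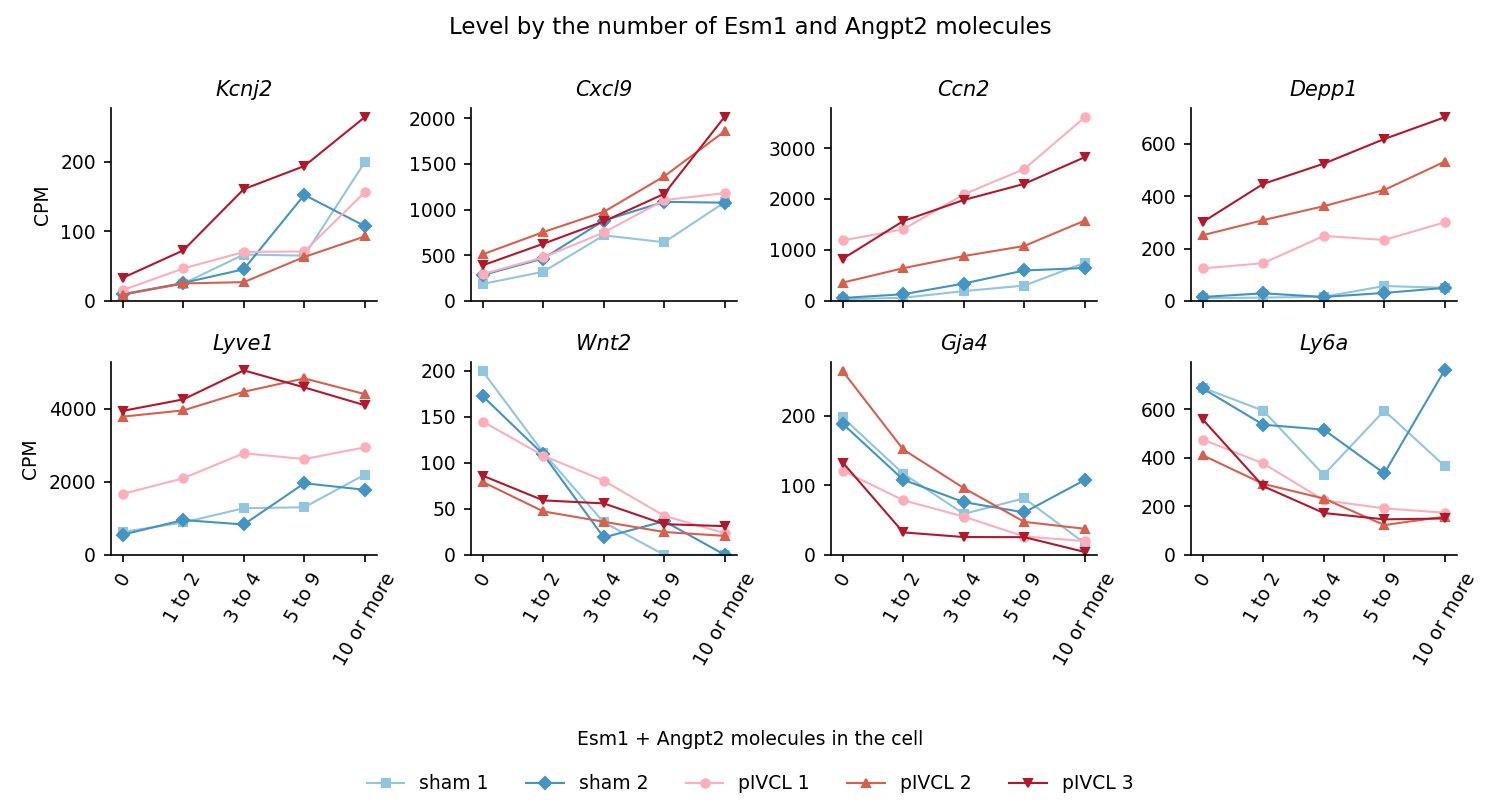
Level (CPM, vertical axis) of 8 genes against the number of Esm1 plus Angpt2 molecules in the cell (horizontal axis, 5 classes), 1 line per library. Cxcl9 and Ccn2 climb and Wnt2 and Gja4 decline across classes in the pIVCL libraries; the highest class of sham 1 and sham 2 holds 12 and 16 cells.

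The few positive cells of sham differed from their low neighbours by amounts that were not always those of pIVCL. The difference between positive and low cells was itself compared between surgeries (edgeR interaction, 5 libraries, 10 sums). Of 11003 genes 98 passed (0.891%), 59 with a difference higher in pIVCL (0.536%) and 39 with one lower (0.354%). Ccn2 had the lowest p: its log2 ratio of positive to low cells was 3.02 and 2.86 in sham and 1.14, 1.31 and 1.11 in pIVCL, an interaction of -1.70 ± 0.10 SE (adjusted p = 7.60e-18). In level, sham low cells held 36.8 and 69.0 CPM and sham positive cells 302 and 502 CPM of Ccn2, while pIVCL low cells already held 479 to 1270 CPM. Abcc9 and Kcnj2 followed the same order, with interactions of -0.82 ± 0.13 SE (adjusted p = 9.95e-05) and -0.93 ± 0.24 SE (adjusted p = 0.0327). Galnt15, Dll4, Efnb2, Ltbp4, Msr1 and Adgrg6 made 6 of 12 periportal genes with a lower difference in pIVCL, and none had a higher one.

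Efnb1 and Msr1 had ratios of opposite sign in the surgeries. Efnb1, an ephrin ligand, was at 185 and 206 CPM in positive and 162 and 165 CPM in low cells of sham, and at 91.4, 143 and 111 CPM against 191, 310 and 265 CPM in pIVCL (interaction -1.35 ± 0.14 SE, adjusted p = 3.88e-09). Msr1, a scavenger receptor, was at 1648 and 1677 CPM against 1149 and 1193 CPM in sham, and at 669, 843 and 663 CPM against 749, 922 and 881 CPM in pIVCL (interaction -0.69 ± 0.08 SE, adjusted p = 1.15e-08). Nrarp, a target and inhibitor of Notch signalling, had log2 ratios of 1.06 and 1.23 in sham and of 0.11, 0.04 and 0.01 in pIVCL (interaction -1.07 ± 0.16 SE, adjusted p = 2.01e-05).

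Immediate-early genes had the opposite order. Egr1 was at 452 and 1028 CPM in positive and 821 and 1463 CPM in low cells of sham, and at 1078, 525 and 195 CPM against 877, 414 and 188 CPM in pIVCL (interaction 0.96 ± 0.09 SE, adjusted p = 6.74e-10). Over all genes tested 0.536% passed with a difference higher in pIVCL and 0.354% with a lower one. Of 17 genes of the immediate-early list 7 passed, each with a higher difference (Dusp1, Egr1, Fosb, Jun, Junb, Jund and Zfp36). None passed the other way. The list made up 0.521 and 0.959% of molecules in sham positive cells against 0.734 and 1.19% in low cells, and 0.964, 0.701 and 0.378% against 0.871, 0.637 and 0.349% in pIVCL; batch 2021.7 held the 2 lowest pIVCL libraries, and the part of batch and of dissociation in this result was not tested. The pericentral list had 4 of 14 genes with a difference higher in pIVCL (Gatm, Kit, Ptgs1 and Wnt2) and a median of 1.06, against 0.053 over all genes. For Wnt2, the sham log2 ratios were -3.17 and -2.98, on 9 and 11 molecules in positive cells, and the pIVCL ratios -1.39, -1.24 and -0.91 (interaction 1.9 ± 0.29 SE, adjusted p = 3.03e-05).

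Low cells also differed between surgeries, and for several sprouting genes by more than positive and low cells differed within pIVCL. In that comparison the libraries of the groups did not overlap for 40.8% of all genes. The fit of low cells (2 sham and 3 pIVCL libraries) called 352 of 11479 genes (3.07%), 214 higher (1.86%) and 138 lower (1.2%) in pIVCL. Depp1 was at 10.7 and 17.1 CPM in sham low cells and 132, 274 and 339 CPM in pIVCL low cells (log2 4.11 ± 0.48 SE, adjusted p = 0.0178). Pdgfb was at 16.5 and 17.4 CPM against 119, 120 and 163 CPM (log2 2.93 ± 0.18 SE, adjusted p = 0.00125), and passed in all 19 alternatives. Plau was at 64.6 and 45.5 CPM against 202, 239 and 243 CPM (log2 2.01 ± 0.18 SE, adjusted p = 0.00490). Low cells of every pIVCL library thus held more Depp1, Pdgfb and Plau than positive cells of either sham library, which held 28.3 to 32.3, 36.9 to 41.6 and 90 to 92.6 CPM. For Kcnj2 and Cxcl9 the order was the reverse: sham positive cells (85.4 and 94.4, and 755 and 1020 CPM) lay above all pIVCL low cells (15.9 to 46.2, and 366 to 612 CPM), and neither gene passed between the low cells of the surgeries (adjusted p = 0.139 and 0.125). These cross comparisons were not tested.

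Other large rises in low cells were Igfbp3, Ccn2, Colec10, Kcnj8, Edn1 and Susd4, between log2 3.02 and 5.16, and the large falls were Tiam1, Slc26a10, Slco2a1, Tbxa2r, Gatm, Hpgd, Flrt1 and Sntb1, by 1.81 to 3.66 on the log2 scale. Of 19 alternatives, Igfbp3 and Kcnj8 kept their calls in 14, Colec10 and Edn1 in 12 and Ccn2 in 11. The call of Ccn2 was lost with batch as a term, in batch 2021.3 alone and among cells without pericentral or large-vessel molecules. Among the falls Slc26a10 kept its call in 18 of the 19, Hpgd in 17, Flrt1 in 15, Sntb1 in 14, Slco2a1 and Gatm in 13 and Tbxa2r in 11. Tiam1, an activator of the GTPase Rac, was at 173 and 185 CPM in sham and 21.2, 12.5 and 7.62 CPM in pIVCL low cells (log2 -3.66 ± 0.31 SE, adjusted p = 0.00534). Of the tip cell list 6 of 20 rose (Adm, Apln, Dll4, Igfbp3, Kcne3 and Pdgfb) and none fell, beside 1.86 and 1.2% of all genes tested. The list median was 0.80 against -0.0017 over all genes. Apln rose in low cells (log2 4.48 ± 0.66 SE, adjusted p = 0.0286) on 29 and 9 molecules in sham, and kept its call in 12 of 19 alternatives. Stellate and fibroblast markers moved with the surgery too: 9 of 17 rose in low cells, and the list made up 0.0318 and 0.0272% of molecules in sham and 0.0904, 0.201 and 0.196% in pIVCL. Their part in these differences was not tested beyond the fit without cells that hold defining markers of other cell types, in which 285 genes passed.

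Positive cells of the 2 surgeries differed in fewer genes, over sham sums of only 79 and 101 cells. Stellate and fibroblast markers made up 0.0148 and 0.0232% of molecules in positive cells of sham and 0.0819, 0.274 and 0.211% in those of pIVCL, and of 16 tested Lrat rose, with a list median of 3.36 against 0.017 over all genes. In sham 1, 8 of these markers were at 0, and in sham 2 Des, Pdgfra, Pdgfrb and Dpt were. Their part in the differences was not tested beyond the fit without cells that hold defining markers of other cell types, in which 75 genes passed. Of 9645 genes tested 81 passed (0.84%), 45 higher (0.467%) and 36 lower (0.373%) in pIVCL. Depp1 was at 32.3 and 28.3 CPM in sham and 264, 445 and 594 CPM in pIVCL positive cells (log2 3.85 ± 0.43 SE, adjusted p = 0.0123). Plvap was at 118 and 149 CPM against 474, 735 and 973 CPM (log2 2.45 ± 0.32 SE, adjusted p = 0.0171), and Lyve1 at 1424 and 1426 CPM against 2822, 4639 and 4379 CPM (log2 1.48 ± 0.21 SE, adjusted p = 0.0116). Plau (log2 2.12), Pdgfb (2.31), Kcnj8 (1.85) and Adm (1.60) rose as well, and the groups did not overlap for any of these genes, as for 36.5% of all genes tested. Ccn2, at 302 and 502 CPM against 2810, 1191 and 2280 CPM, did not pass (log2 2.38 ± 0.47 SE, adjusted p = 0.134). Kcnj2, Cxcl9, Abcc9, Kcne3 and Dll4 did not pass either, with log2 differences of 0.40, 0.50, 1.22, 2.28 and 0.36.

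Tiam1, Tox2, Slco2a1, Hpgd, Jam2, Lifr, Ly6a and Cyyr1 made up the largest falls in pIVCL positive cells. Slco2a1 was at 129 and 92.6 CPM in sham and 29.8, 19.1 and 14.4 CPM in pIVCL (log2 -2.36 ± 0.31 SE, adjusted p = 0.00602), so it was low in both respects, by state and by surgery. Edn1, Egfem1, Slc16a9, Obsl1 and Rspo3 were called higher on 2 to 5 molecules in the positive cells of both sham libraries together, and their fitted changes are not given. Edn1, for instance, had 1 and 2 molecules in sham and 303, 208 and 243 in pIVCL positive cells. With sham 1 or sham 2 left out no gene passed in positive cells (edgeR), while 1110 and 1088 had an unadjusted p under 0.05, and without pIVCL 1 the count was 715. In low cells the counts without sham 1, sham 2, pIVCL 1, pIVCL 2 and pIVCL 3 were 42, 28, 2479, 96 and 16, and Pdgfb, Susd4, Tiam1 and Thbd kept their calls in low cells without each of these libraries. Within batch 2021.3 alone (2 sham libraries and 1 pIVCL library) 330 genes passed in low and 185 in positive cells, and with batch as a term 195 and 62 did.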

How the data were processed

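Whole-transcriptome molecule counts per gene and cell were deposited for 5 libraries of liver non-parenchymal cells. Per the file headers, the authors made these counts with the BD WTA Rhapsody Analysis Pipeline 1.9.1 on GRCm39, with molecular identifiers corrected for errors; for aligner and annotation nothing is given in the sources used here. Cells were filtered, gated and split as the report describes, and counts were summed per library and state. The sums held 3397192 to 15004524 gated molecules a library. edgeR 4.0.16 (R 4.3.3) quasi-likelihood tests with Benjamini-Hochberg adjustment at 0.05 compared positive with low cells within pIVCL libraries, that difference between surgeries, and each state between surgeries. Standard errors are the fitted log2 difference over the square root of F. CPM values of positive and low cells share 1 TMM scale over the 10 sums, and ratios between them use a pseudocount of 0.5. Values of Angpt2-only and Esm1-only cells and of cells by number of Esm1 and Angpt2 molecules have no such scaling. Scripts were tested on simulated data with 200 changed genes. For positive against low cells 17 of 171 calls fell on unchanged genes, and for that difference between surgeries 11 of 112. Between surgeries 13 of 108 did so in low cells and 7 of 82 in positive cells. Of 2-fold changes 80.8, 50.8, 54.7 and 28.3% were recovered, in the same order of comparisons. Scrublet's automatic threshold marked 0 to 13 cells a library, so doublets were kept, and the 3% of cells with the highest scores were left out only as an alternative.

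Named genes were the 10 largest rises and 10 largest falls (8 each between surgeries) that passed with libraries in 1 direction and averaged 5 or more on the log2 CPM scale, the 4 lowest p-values of each list, the 5 lowest in each direction of the comparison of differences, and a preset list. Other genes were named after their values were seen. The members and all lists were chosen with earlier results of these data known. DESeq2 1.42.0, other filters and cell sets, batch terms and removal of single libraries were alternatives. Where 1 sham library remained, its spread was assumed to equal that of the other libraries.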

Additional observations from a re-analysis of the deposited data

Results flagged for a closer look

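The difference between positive and low cells itself differed between pIVCL and sham for 98 genes (edgeR interaction, adjusted p under 0.05), and 15 of them were named by the rule. Of these 15, it was lower in pIVCL for Ccn2 (log2 -1.70), Efnb1 (-1.35), Nrarp (-1.07), Msr1 (-0.69), Dll4 (-0.48) and Cd36 (-0.45). It was higher in pIVCL for Wnt2 (log2 1.9), Plekhg1 (1.01), Egr1 (0.96), Plvap (0.66), Zfp36 (0.63), Jun (0.57), Jund (0.54), Mrc1 (0.36) and Stab1 (0.31). Plekhg1 was at 136 and 113 CPM in positive and 223 and 209 CPM in low cells of sham, and at 195, 154 and 166 CPM against 162, 148 and 145 CPM in pIVCL 1, 2 and 3. Of 11 alternatives, Stab1 kept its call in 5, Dll4 and Plvap in 7 and Msr1 in 9. Cd36, Jun, Mrc1, Nrarp and Zfp36 kept theirs in 10, and Wnt2 in 9 of 10. Jun, Wnt2 and Zfp36 did not pass with equal numbers per depth decile. Cd36, Mrc1 and Nrarp did not pass among cells without pericentral or large-vessel molecules. Dll4 and Plvap did not pass without sham 1, and Stab1 not without sham 2 or pIVCL 2. The sham values rest on 79 and 101 positive cells.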

How the results depend on the processing

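Within pIVCL, 235 genes passed by DESeq2's Wald test, 3 with no library block and 204 among cells without pericentral or large-vessel molecules. Without cells holding molecules of other cell types 506 passed, and with 1 library left out 527 to 787 did (527 without pIVCL 1). Selp turned to 0.059 in the first of these cell sets and Igfbp3 to -0.57 in the second; the cause was not tested. For the difference between surgeries the counts were 154 with no expression filter, 55 with equal numbers per depth decile, 43 and 64 in the same cell sets, and 67 to 124 with 1 library left out; Plvap turned to -0.012 in the first cell set. In low cells they were 1027 with no filter, 926 by the Wald test and 156 without the highest doublet scores. They were 195 with batch as a term and 106 among cells without pericentral or large-vessel molecules. With 1 pIVCL library left out they were 16 to 2479. In positive cells they were 538 with no filter, 181 by the Wald test, 185 in batch 2021.3 alone, 52 with cells thinned to 2000 molecules, 38 without pericentral and large-vessel cells and 0 to 715 with 1 library left out. The 2 cell sets were chosen after seeing the data. Over all values of named genes and counts within pIVCL, 1297 alternatives kept direction and call, 169 lost the call, 17 gained it and 2 changed sign.

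The excess in the share of positive cells, 34.7 points, was 19.8 after thinning, 48.2 at 1 or more molecules, 25 at 5 or more, 26.1 by Esm1 alone, 13.3 by Angpt2 alone, and 32.2 to 36.5 with 1 library left out.

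With the replicate number as a replicate block, 62 genes passed in low and 279 in positive cells. Only 2 numbers are shared, and same-numbered libraries had correlations of 0.061 and 0.076 in low and 0.090 and 0.0059 in positive cells, so the numbers were not taken as pairs.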

Other observations

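Of 11 tested genes of the large-vessel list 4 fell in positive cells of pIVCL (Adgrg6, Gja4, Selp and Vwf), Efnb2 rose and 6 did not pass. Of all genes tested 3.55% fell. In sham 1 and sham 2 the list made up 0.240 and 0.226% of molecules in positive and 0.189 and 0.189% in low cells. Vwf and Igfbp5, which is not on that list, showed large differences at low levels. Vwf, the von Willebrand factor of larger vessels, was at 2.07, 2.09 and 8.75 CPM in positive and 26.2, 13.2 and 30.0 CPM in low cells of pIVCL 1, 2 and 3. Igfbp5, which binds insulin-like growth factors, was at 1.65, 0.596 and 1.25 CPM against 17.3, 11.6 and 42.7 CPM. Both were low in positive cells of each pIVCL library.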
